A study of Mus musculus with 7 samples.

Results

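Cell populations labelled Sdc4+ were compared with populations labelled Sdc4- across mouse lines, on 6 of the 7 single-colour Agilent 60-mer arrays of the series (3 a side). The arrays were taken by their labels alone, and the remaining array, of Cspg4+ cells with no Sdc4 label, was left out. The series title concerns the origin of dermal cells able to form muscle. The Sdc4+ side held Myf5SOR+ cells (strain B6.129S4-Myf5tm3(cre)Sor/J, in which Cre is knocked into the myogenic regulator gene Myf5), Cspg4- cells (B6,FVB-Tg(Cspg4-cre)1Akik/J, with Cre under the promoter of the NG2 proteoglycan gene of pericytes) and cells of outbred Crl:CD1(ICR) mice, which the labels give no Cre. The Sdc4- side held B195AP+ cells (B195AP-Cre, a Cre line with no driver given in the labels), and Cspg4- and CD1 cells from those same 2 lines. The + or - after a line's name is the labels' own mark in a lineage tracing design, and the labels give neither the ages of the animals nor how Sdc4 was sorted. Each population came from 8 to 10 animals, with 10 to 200 ng of RNA as input, and was read on 1 array. So arrays of a side differ in line, and every p-value takes in differences between lines unless line was fitted as a block. The Sdc4+ arrays lay in another row of the slide than the Sdc4- arrays, so slide row and Sdc4 label cannot be told apart.

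Sdc4 encodes syndecan-4, a transmembrane proteoglycan whose heparan sulfate chains bind growth factors, chemokines and fibronectin and which works with integrins at focal adhesions. It is carried by the satellite cells of skeletal muscle, which repair it, and also by fibroblasts and endothelial cells. Signalling, surface, metabolic and matrix genes were grouped into 44 lists, and cell type markers into a further 14, and the muscle transcripts are treated among the latter. The lists were written with earlier results of these data known, so the counts and shares of their members describe and test nothing.

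Values are log2 processed signal minus the 75th percentile of the array, so 0 lies among the brighter spots and 1 unit is 2-fold. Sdc4+ values are listed in the order Myf5SOR+, Cspg4-, CD1, and Sdc4- values in the order B195AP+, Cspg4-, CD1. The B195AP+ array carried streaks of low signal, and its spots in that region were left out, so 6272 of the 19157 genes tested have 2 Sdc4- values and not 3; these are marked as resting on 3 against 2 arrays. The lowest signal well above background lay between -4.46 and -3.60 on these arrays, so lower values have no order, and a difference taken against them has no exact size. The share of spots well above background lay between 45.9% and 50.8%, controls aside. Pearson correlations over genes with 6 values ran from 0.960 (CD1 Sdc4+ with B195AP+) to 0.986 (the CD1 pair). Pax7, Pax3 and Myf5, which define satellite cells and their precursors, were not well above background on any of the 6 arrays.

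The 250 bases before the RefSeq start sites (build GRCm38.p6) are shown for 4 genes, the sorting marker, the Fc receptor genes that lead the Sdc4+ side and the muscle filament gene Des of the Sdc4- side. Capitals mark matches to the NF-kappaB letters (GGGA, then any 4 bases, then CC) in the first 3 and to the E-box letters CAGCTG in Des, on either strand. The NF-kappaB letters are a loose pattern, and other forms of the site were neither searched nor marked.
Sdc4 (chr2:164443189-164443438, minus strand): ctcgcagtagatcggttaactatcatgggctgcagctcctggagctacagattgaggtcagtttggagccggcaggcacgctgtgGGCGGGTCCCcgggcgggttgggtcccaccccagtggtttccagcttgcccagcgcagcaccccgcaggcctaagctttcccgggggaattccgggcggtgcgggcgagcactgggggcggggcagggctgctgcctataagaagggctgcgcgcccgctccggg
Fcgr2b (chr1:170976072-170976321, minus strand): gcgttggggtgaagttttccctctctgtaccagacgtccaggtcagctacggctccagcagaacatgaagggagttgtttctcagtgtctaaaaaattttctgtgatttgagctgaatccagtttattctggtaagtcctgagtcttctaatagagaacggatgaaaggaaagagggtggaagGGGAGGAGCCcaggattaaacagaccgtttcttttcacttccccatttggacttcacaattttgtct
Fcgr3 (chr1:171059404-171059653, minus strand, the first of its 2 entries): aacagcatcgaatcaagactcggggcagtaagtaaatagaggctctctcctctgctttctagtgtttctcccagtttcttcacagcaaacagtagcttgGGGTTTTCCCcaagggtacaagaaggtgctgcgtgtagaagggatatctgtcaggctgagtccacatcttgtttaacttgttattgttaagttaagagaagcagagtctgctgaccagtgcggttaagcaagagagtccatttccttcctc
Des (chr1:75360042-75360291, plus strand): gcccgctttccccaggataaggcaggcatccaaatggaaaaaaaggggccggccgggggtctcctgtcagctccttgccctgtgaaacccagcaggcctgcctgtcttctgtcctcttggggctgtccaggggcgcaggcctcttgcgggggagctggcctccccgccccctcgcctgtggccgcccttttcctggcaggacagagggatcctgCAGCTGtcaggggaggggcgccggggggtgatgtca
Each of these windows held 1 match to the letters searched in it. The NF-kappaB letters occurred in 17.6% of all 32851 promoter windows of this length, in 22.4% of those of genes tested and in 21.3% of the 164 windows of genes called higher (every Sdc4+ array above every Sdc4- array, and at least 2-fold apart). The E-box letters occurred in 13.0% of all windows, in 12.1% for genes tested and in 19.1% of the 173 windows of genes called lower. Without the sarcomere list this last share was 17.4%. Windows were at hand for 125 of the 272 genes called higher and for 141 of the 247 called lower. The AP-1 letters TGANTCA were in 6.75% of all windows, 4.95% for genes tested, 9.15% for genes called higher and 5.78% for genes called lower. The letters TGACNNNGC of the antioxidant response element were in 10.2%, 11.7%, 12.8% and 14.5% of the same sets. These matches are letters in a window and say nothing of binding.

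Sdc4 itself was at 3.80, 6.29 and 6.35 on the Sdc4+ arrays and at 5.11 and 5.28 on the Cspg4- and CD1 Sdc4- arrays, its B195AP+ spot lying in the streaked region. The Myf5SOR+ Sdc4+ array thus had the lowest Sdc4 value of the 5, and the groups overlapped (difference 0.29 ± 0.76, SE, 3 against 2 arrays; adjusted p = 0.937 in limma). Within a line the Sdc4+ array was higher by 1.18 (Cspg4-) and by 1.07 (CD1). The transcript therefore went with the label inside both lines but not on the Myf5SOR+ array. For this reason the differences inside the Cspg4- and CD1 lines, 1 array a side and with no test, are given for most genes described, with the Cspg4 line first ("lines"). Cspg4, the gene of the other Cre line, was at -0.58, 0.35 and 1.18 against 1.77, 0.65 and 1.02, and its groups also overlapped (-0.83 ± 0.47; adjusted p = 0.607).

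No gene passed limma's Benjamini-Hochberg adjusted p of 0.05 in the fit of 2 group means (0 of 19157, 0%). The smallest adjusted p was 0.20, for Fcgr3, a gene that passed the background filter through the Sdc4+ arrays alone. Before adjustment, 1879 genes (9.81%) had p under 0.05, 1032 of them higher and 847 lower in Sdc4+. With line as a fixed block, a fit that rests on the 2 lines with both populations and has 1 residual degree of freedom, 32 genes passed (0.167%); with line as a random block 1 gene, Fcgr3, passed (0.00522%). A descriptive call was therefore used: a gene was called when its groups did not overlap and lay at least 2-fold apart. That held for 519 genes (2.71%), 272 higher (1.42%) and 247 lower (1.29%); with no size demanded, 10.3% of genes lay wholly higher and 9.5% wholly lower. The count of such genes was 144 under normexp background correction and 340 in the authors' own value table. Without the Myf5SOR+ and B195AP+ arrays 569 genes were called; without the CD1 Sdc4+, CD1 Sdc4- or Cspg4- Sdc4- array there were 1091, 1095 and 924, as fewer arrays overlap more rarely by construction. In both lines at once, 199 genes (1.04%) were at least 2-fold apart in the same direction, 106 higher and 93 lower. Of the 96 genes given by the naming rule and called, 41 stayed at least 2-fold apart under normexp, which compresses dim signals, and 69 had a difference over 1.5 times smaller; the normexp value is given with most of these. The median difference of all genes was 0.01, with 51.1% of them above 0.

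**Figure D1:**
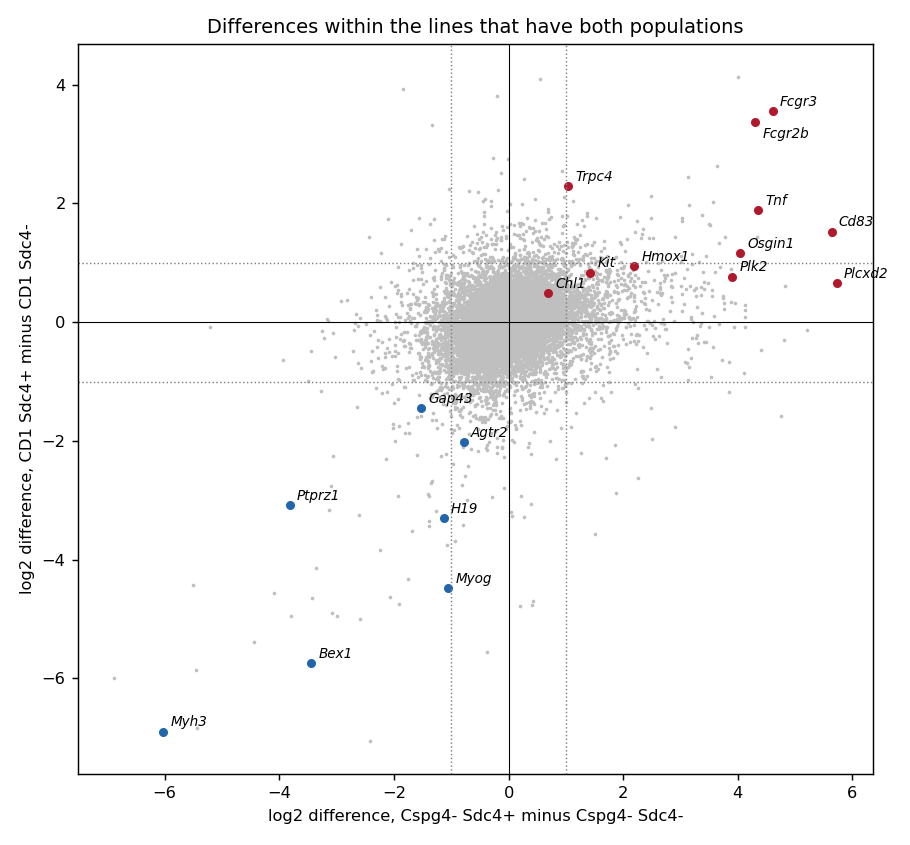
Each point is 1 gene, with its log2 difference between the Cspg4- Sdc4+ and Cspg4- Sdc4- arrays on the horizontal axis and between the CD1 arrays on the vertical axis; dotted lines mark 2-fold, and red and blue points are named genes higher or lower in Sdc4+. Fcgr2b and Fcgr3 lie far out in both lines, at 4.30 and 3.37 and at 4.61 and 3.55. Genes whose Sdc4- value lies under the background limit, such as Plcxd2 and Cd83, have no exact horizontal position.

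Signalling genes leaned towards the Sdc4+ side: 311 of the 496 measured members of 15 lists were higher and 185 lower, with a median difference of 0.16 against 0.01 for all genes. Few of them differed by much, and 18 (3.63%) were called, 12 higher and 6 lower, against 2.71% of all genes. Among the called members the largest differences were in Tnf, Kit and Flt1 on the higher side and in Rspo4, Agtr2 and Bmp7 on the lower side, and none passed limma's adjusted test (named genes of the rule had adjusted p from 0.20 to 0.937). In these bulk populations fewer cells of a type and less RNA per cell cannot be told apart.

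Tnf, which encodes the cytokine that opens the NF-kappaB pathway, was at -1.91, 0.40 and -0.60 on the Sdc4+ arrays and at -5.32, -3.95 and -2.49 on the Sdc4- arrays, 1 of which was well above background. The groups did not overlap, and the difference was 3.21 ± 0.81 (SE, n = 3 a side; 4.35 in the Cspg4 line and 1.89 in CD1; 1.24 under normexp; adjusted p = 0.372 in limma). Nfkbie, an inhibitor that NF-kappaB itself induces, was at 1.21, 1.54 and 0.85 against -0.16 and -0.03 (1.30 ± 0.24, 3 against 2 arrays, lines 1.71 and 0.88). Relb, a subunit of the noncanonical pathway, lay 0.77 ± 0.28 higher, while its other probes gave -0.01 to 0.74. The receptor gene Tnfrsf1a overlapped between groups, at 5.42, 5.03 and 5.21 against 5.11, 4.97 and 5.25 (other probe 0.62 higher). In the list of TNF family and NF-kappaB genes 23 of 34 members were higher (median 0.17) and 3 were called (8.82%, against 2.71% of all genes). These were Tnf and Nfkbie, which were higher, and Ngfr, the low-affinity neurotrophin receptor, which was lower.

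Of the growth factor receptor kinases and their ligands, 29 of 41 members were higher (median 0.24; 0.31 and 0.23 within the Cspg4 and CD1 lines), and 10 lay wholly higher (24.4% against 10.3% of all genes) with 0 wholly lower (9.5% of all genes). Kit, the receptor of stem cell factor, was at -1.05, -1.86 and -1.99 against -6.29, -3.28 and -2.83 (2.50 ± 0.86, lines 1.42 and 0.83, 0.73 under normexp), with the B195AP+ array lowest and 2 of the Sdc4- arrays well above background. Kit is also a melanocyte marker. The summed linear signal of 5 melanocyte markers was 76.3 to 80.6 on Sdc4+ arrays and 30.8 to 58.8 on Sdc4- arrays. Kit itself was a small part of it, so brighter markers carried the sum. Tyrp1, Slc45a2 and Oca2 were not well above background on any array, and Dct was on 1 array of each side. Pmel, a melanosome gene that this sum leaves out for want of a B195AP+ value, went the other way, at -4.26, -3.72 and -3.97 against -3.51 and -2.01, with 1 Sdc4+ array well above background. Of the 6 measured melanocyte markers 4 were higher and 2 lower, and the part of melanocytes in the Kit value was not tested. Flt1, a VEGF receptor, was at 3.17, 1.26 and 2.33 against -0.08, 0.94 and 1.24 (1.55 ± 0.52), and the gap inside the Cspg4 line was 0.32 (other probe 0.68). Of 6 measured endothelial markers 3 were higher and 3 lower, with summed signals of 16.4 to 26.6 against 17.2 to 21.6; of the 8 others Tek, Tie1, Emcn, Cldn5 and Robo4 were not well above background on any array, and the rest were on 1 array of a side or both. The macrophage growth factor gene Csf1 and its receptor gene Csf1r were both wholly higher, by 0.80 ± 0.23 and 0.76 ± 0.20 (other probes of Csf1r 0.19 to 0.76). Both were also higher inside each line, Csf1 by 0.66 and 0.97 and Csf1r by 0.75 and 0.73 (Cspg4 line first).

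Among the small GTPases and the proteins that switch them, 38 of 53 were higher (median 0.22) and 11 lay wholly higher (20.8% against 10.3% of all genes) and 1 wholly lower, although 1 was called. That was Rassf3, not well above background on any Sdc4- array and at least 1.81-fold higher in Sdc4+. Rhob, an endosomal small GTPase, was at 1.70, 1.46 and 1.27 against 0.54 and 0.66 (0.87 ± 0.19, 3 against 2 arrays, lines 0.92 and 0.61), but a second probe gave 0.03, and the sign turned to -0.04 under normexp correction and to -0.02 with the streaked region kept in. Outside the lists, Edn1, the gene of the vasoconstrictor endothelin-1, was likewise not well above background on the Sdc4- arrays and at least 2.02-fold higher in Sdc4+. Plk2, a stress-responsive kinase, was at 3.13, 3.34 and 2.36 against 1.25, -0.55 and 1.59. Its difference was 2.18 ± 0.55 over all arrays, with 3.90 in the Cspg4 line and 0.77 in CD1.

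Of the BMP genes, 4 of 5 ligands were lower, while 7 of 8 inhibitors and 5 of 6 targets were higher. Bmp7, a ligand, was at 0.34, 1.92 and 1.81 on the Sdc4+ arrays against 2.83 and 3.54 (-1.82 ± 0.51, 3 against 2 arrays, lines -0.91 and -1.72). Gdf10, another ligand of the family, was at -0.67, 0.95 and -0.19 against 1.89 and 1.11 (-1.47 ± 0.50, 3 against 2 arrays, lines -0.94 and -1.30). Nog, the secreted antagonist noggin and the 1 inhibitor that was lower, was at -1.27, -0.88 and -1.15 against -0.20, -0.35 and -0.43 (-0.78 ± 0.19, lines -0.53 and -0.72). All 3 were lower on every Sdc4+ array. Id3, a transcriptional target of BMP signalling, was at 5.91, 5.32 and 5.87 against 4.82, 3.88 and 4.98 (1.14 ± 0.31, lines 1.44 and 0.89), so it was higher on every Sdc4+ array. Id1, a second target, was higher by 1.37 ± 0.60 with overlap between the groups. In all, 15 of 21 members were higher (median 0.21) and 3 were called (14.3%, against 2.71% of all genes). Noggin is also a marker of the dermal papilla of hair follicles, whose markers were lower in 9 of 12 measured cases. Their summed signal was 122 to 185 on Sdc4+ arrays and 201 to 255 on Sdc4- arrays. Most of this sum was Crabp1 alone, at 6.76, 7.41 and 7.02 against 7.53, 7.89 and 7.67, which is also in the dermal fibroblast list. The sum therefore says little of the other papilla markers, and the part of papilla cells in the BMP values was not tested.

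In the related TGF-beta and activin list 26 of 37 members were higher (median 0.18). Inhbb, the activin B subunit, was at 5.25, 4.70 and 4.62 against 3.02, 4.46 and 3.69 and was the member called (1.13 ± 0.36, but 0.24 in the Cspg4 line). Tgfbr3, a coreceptor that is itself a proteoglycan, lay wholly higher by 0.71 ± 0.21.

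FGF and ERK feedback genes split. Dusp6, a phosphatase that ERK signalling induces, was at 4.23, 4.80 and 3.93 against 6.14 and 4.82 and was the member called (-1.16 ± 0.43, 3 against 2 arrays, lines -1.34 and -0.90); it was chosen after its value was seen. The ERK-responsive factor Etv1 lay wholly lower by 0.71, while Dusp5, a phosphatase of nuclear ERK, was at 0.12, 0.13 and 0.13 against -0.85, -0.70 and -0.42 (0.78 ± 0.18). The list as a whole had 13 of 24 members higher. In the Wnt list (13 of 27 higher) the ligand enhancer Rspo4 was at -4.85, -2.22 and -1.70 against -0.69, -0.87 and -0.05 (-2.38 ± 0.77, lines -1.35 and -1.65, -0.80 under normexp), and Lgr4, a receptor of such enhancers, differed by 1.07 ± 0.42. Only 1 Sdc4- array was well above background for Lgr4.

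Among receptors and guidance cues, the angiotensin receptor gene Agtr2 was at -1.52, -1.31 and -0.99 against 2.50, -0.52 and 1.03 (-2.28 ± 0.67). The B195AP+ array was the highest, and the lines gave -0.79 and -2.02. Ccrl2, a chemerin-binding receptor, lay wholly higher by 1.20 ± 0.30 (lines 1.81 and 0.37). Nrp1, a semaphorin and VEGF coreceptor, lay wholly higher by 1.03 ± 0.30 (3 against 2 arrays). The ephrin receptor gene Epha7 lay higher by 1.23 ± 0.31, and its other probe gave 0.27. In the Hedgehog list the receptor and target gene Ptch1 was the only member without overlap (0.70 ± 0.24), and in the Notch list the DNA-binding effector Rbpj lay wholly lower (-0.54 ± 0.14, other probe -1.06). The Notch ligand Jag1 and target Hes1, with overlapping groups, differed by 2.38 and 4.13 between the Cspg4- arrays and by 0.68 and 0.20 between the CD1 arrays. The Hedgehog, Notch, Hippo, interleukin and cyclic nucleotide lists had 0 called members.

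**Figure D2:**
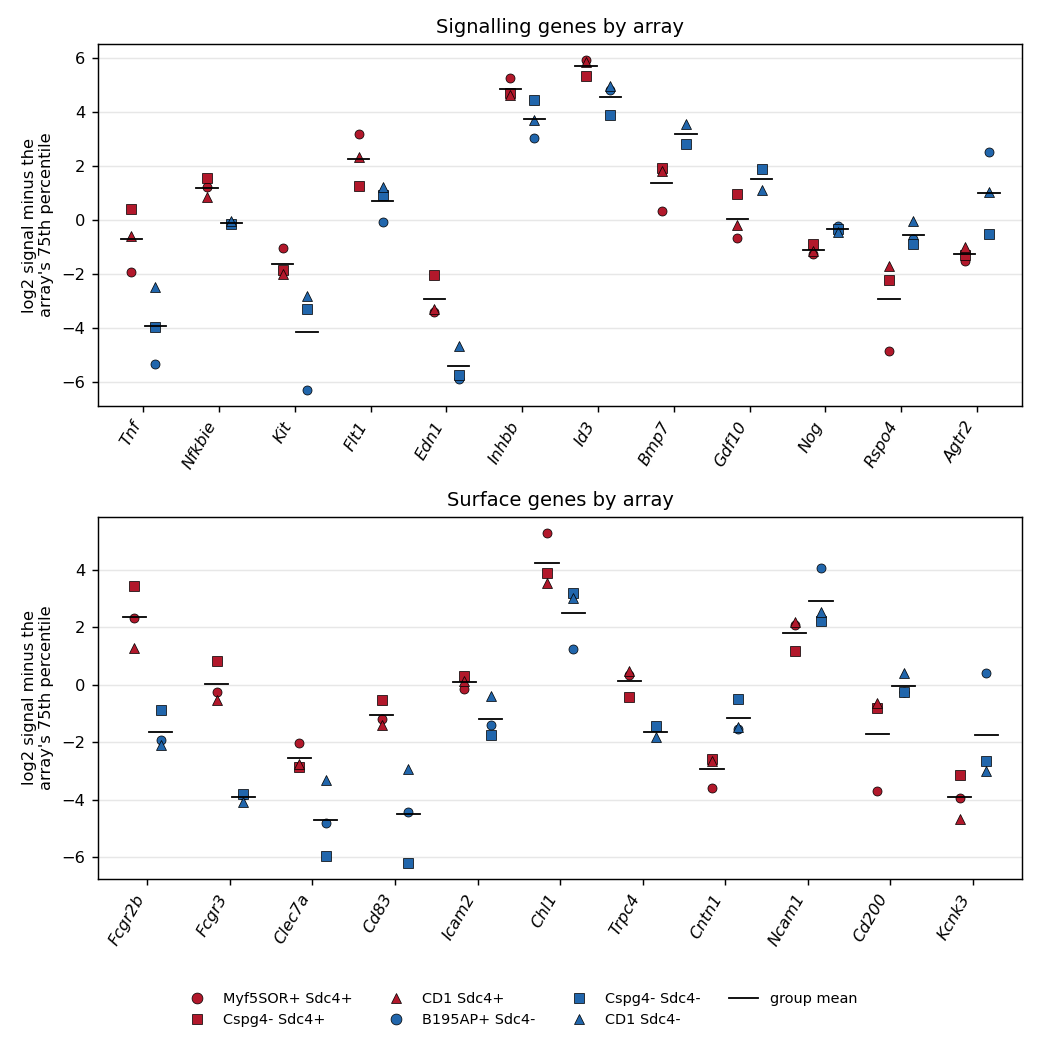
Signal of signalling genes (top) and surface genes (bottom) on each array, as log2 signal minus the array's 75th percentile. Red symbols are Sdc4+ arrays, blue symbols Sdc4- arrays and bars the mean of the group. Squares mark the Cspg4 line and triangles CD1. Circles are Myf5SOR+ in red and B195AP+ in blue, which are different lines. Fcgr3 lies between -0.53 and 0.83 on Sdc4+ arrays and between -4.08 and -3.78 on Sdc4- arrays, and the B195AP+ array is the most extreme for Tnf, Kit, Agtr2 and Kcnk3.

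Surface genes held the smallest p-value of the comparison, that of Fcgr3. Of 244 measured members of 9 lists 131 were higher and 113 lower (median 0.06), and 17 (6.97%) were called, 9 higher and 8 lower, against 2.71% of all genes. The higher ones included Fc receptors and the adhesion molecules Chl1 and Icam2, and the lower ones neural-type adhesion molecules and the antigens Cd200 and Ngfr.

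Fcgr3, the activating low-affinity receptor for IgG, was at -0.25, 0.83 and -0.53 on the Sdc4+ arrays and at -3.84, -3.78 and -4.08 on the Sdc4- arrays, where it was not well above background. It was at least 14.6-fold higher in Sdc4+ (fitted difference 3.92 ± 0.37; 4.61 and 3.55 in the lines; 1.67 under normexp; adjusted p = 0.20 in limma without a block, 0.00599 with line as a fixed block). Fcgr2b, the inhibitory receptor for IgG, was at 2.32, 3.44 and 1.28 against -1.91, -0.87 and -2.09 (3.97 ± 0.56; 4.30 and 3.37 in the lines; adjusted p = 0.351 without and 0.00212 with the fixed block). Neither gene's groups came within 2 log2 units of each other. Fcgr3 passed the background filter through the Sdc4+ arrays alone, so its p-values are no independent support for the difference. Both genes are neighbours of 1 family, and whether their probes share signal was not tested. The other 15 measured members of the Fc receptor and complement list differed by -0.83 to 0.52, among them Fcer1g, the signalling chain of the activating receptor (0.30, groups overlapping).

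Fc receptors are best known from myeloid cells, so the myeloid markers were read beside them. Of 18 listed macrophage and myeloid markers 7 were measured, 3 higher and 4 lower (median -0.06), with 0 called. The measured member without overlap was Csf1r, higher by 0.76 (other probes 0.19 to 0.76). Of the 11 others Ptprc, Lyz2, Tyrobp, C1qa, C1qc, Mrc1, Cd163 and Ctss were not well above background on any of the 6 arrays, while Laptm5 was on 2 Sdc4- arrays and Adgre1 and Cx3cr1 on 1 each. The summed linear signal of the 6 members with 6 values ran from 34.6 to 56.2 on Sdc4+ arrays and from 36.2 to 54.7 on Sdc4- arrays; the integrin chain gene Itgam was the brightest of these probes and differed by -0.06. Clec7a, the beta-glucan receptor dectin-1, was at -2.01, -2.85 and -2.75 against -4.81, -5.96 and -3.31 (2.15 ± 0.66, 0.56 under normexp), with 1 Sdc4- array well above background. Cd83, an activation marker of dendritic cells, was at -1.19, -0.54 and -1.39 against -4.41, -6.18 and -2.92 (3.46 ± 0.76, 1.17 under normexp), again with 1 Sdc4- array above background. The mast cell list had medians of opposite sign in the lines (1.17 in the Cspg4 line and -1.62 in CD1 over 6 genes), and Kit is a member of it. Cpa3, the mast cell carboxypeptidase, was at -6.32 on the CD1 Sdc4+ array, under the background limit, and at -0.77 on the CD1 Sdc4- array, while Kit was higher by 0.83 in CD1.

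Adhesion molecules of the immunoglobulin superfamily were called in both directions (5 of 42, 11.9%, against 2.71% of all genes). Chl1, a relative of the neural molecule L1, was at 5.28, 3.88 and 3.53 against 1.26, 3.19 and 3.04 (1.73 ± 0.61, other probe 1.87), and most of this came from the Myf5SOR+ and B195AP+ arrays, as the lines gave 0.69 and 0.49. Icam2, a leukocyte-binding molecule of endothelium, was at -0.13, 0.32 and 0.15 against -1.39, -1.74 and -0.39 (1.29 ± 0.35, lines 2.07 and 0.54, 0.84 under normexp). Lower were Cntn1, a contactin of axons, at -3.57, -2.59 and -2.65 against -1.54, -0.48 and -1.48 (-1.77 ± 0.40, lines -2.12 and -1.17, -0.56 under normexp), and Igsf10 (-1.17 ± 0.32, other probe -0.85, lines -1.05 and -0.93). Ncam1, an adhesion molecule of nerve and regenerating muscle, was at 2.09, 1.18 and 2.17 against 4.05, 2.21 and 2.53 (-1.12 ± 0.49, lines -1.04 and -0.36). The nearest arrays of the 2 groups were only 0.04 apart in Ncam1.

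Ptprz1, a receptor phosphatase that binds contactin and pleiotrophin, was at -4.57, -5.53 and -3.36 against -2.34, -1.71 and -0.28 (-3.04 ± 0.69; other probe -3.58; -3.82 and -3.08 in the lines; adjusted p = 0.351 without and 0.0296 with line as a fixed block, -0.72 under normexp). Only 1 Sdc4+ array was well above background for it. Cd200, an immune-inhibitory ligand, was at -3.67, -0.80 and -0.64 against -0.25, -0.26 and 0.43, so the Myf5SOR+ array made most of its difference (-1.68 ± 0.76, lines -0.54 and -1.07, -0.75 under normexp). Ngfr differed by -1.74 ± 0.66, by -0.10 in the Cspg4 line and by -0.42 under normexp. The Schwann and neural crest markers, which hold Ngfr, were lower in 6 of 8 measured cases, with 3 called lower (37.5%, against 1.29% of all genes). These were Ngfr, Gap43 and Tfap2a, the last of which turned to 2.21 with no filter on dim probes. The summed signals of the Schwann and neural crest markers overlapped, at 39.2 to 49.8 against 31.9 to 58.0. Gap43, a growth cone protein, was at 0.71, 0.41 and 0.37 against 1.93 and 1.82 (-1.38 ± 0.19, 3 against 2 arrays; adjusted p = 0.351 without and 0.0236 with the fixed block, lines -1.52 and -1.45). Sox10, Erbb3 and Foxd3 were dim on every Sdc4+ array, and 1 Sdc4- array had Sox10 well above background.

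Of 21 integrin genes 16 were lower (median -0.18; lines -0.24 and 0.06). The 1 called member was Itgbl1, an integrin beta-like protein, at 0.51, 1.29 and 1.22 against -0.07, 0.37 and -0.28 (1.00 ± 0.27). Itga5, which pairs with the beta 1 chain as a fibronectin receptor, lay just under 2-fold higher, at 4.99, 4.53 and 4.14 against 3.60, 3.62 and 3.46 (1.00 ± 0.22; 0.91 and 0.68 in the lines). Itgb5, a chain of the vitronectin receptor, was wholly higher by 0.65 ± 0.16. The collagen receptor chains Itga2 and Itga11 lay wholly lower by 0.84 and 0.65 (both 3 against 2 arrays), Itga11 with a gap of 0.003 in the Cspg4 line. The shared chain Itgb1 differed by -0.18, and by -0.83 on its other probe. Among the cell surface proteoglycans 7 of 10 were higher, with Sdc1 at 5.93, 4.80 and 5.30 against 4.38 and 4.78 (0.76 ± 0.34, 3 against 2 arrays) and 0 called.

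Of 57 ion channel genes 3 were called (5.26% against 2.71% of all genes): Trpc4 higher, and Kcnk3 and Scn3b lower. Scn3b, a sodium channel subunit, differed by -1.08 ± 0.41, with -0.59 and -0.14 in the lines. Trpc4, a calcium-permeable channel, was at 0.34, -0.41 and 0.48 against -1.45 and -1.81 (1.77 ± 0.32, 3 against 2 arrays; other probe 1.35, lines 1.04 and 2.29, 1.17 under normexp). Kcnk3, a background potassium channel, was at -3.94, -3.12 and -4.66 against 0.42, -2.66 and -2.98, so the B195AP+ array carried most of its difference (-2.17 ± 0.89, lines -0.46 and -1.68, -0.75 under normexp).

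**Figure D3:**
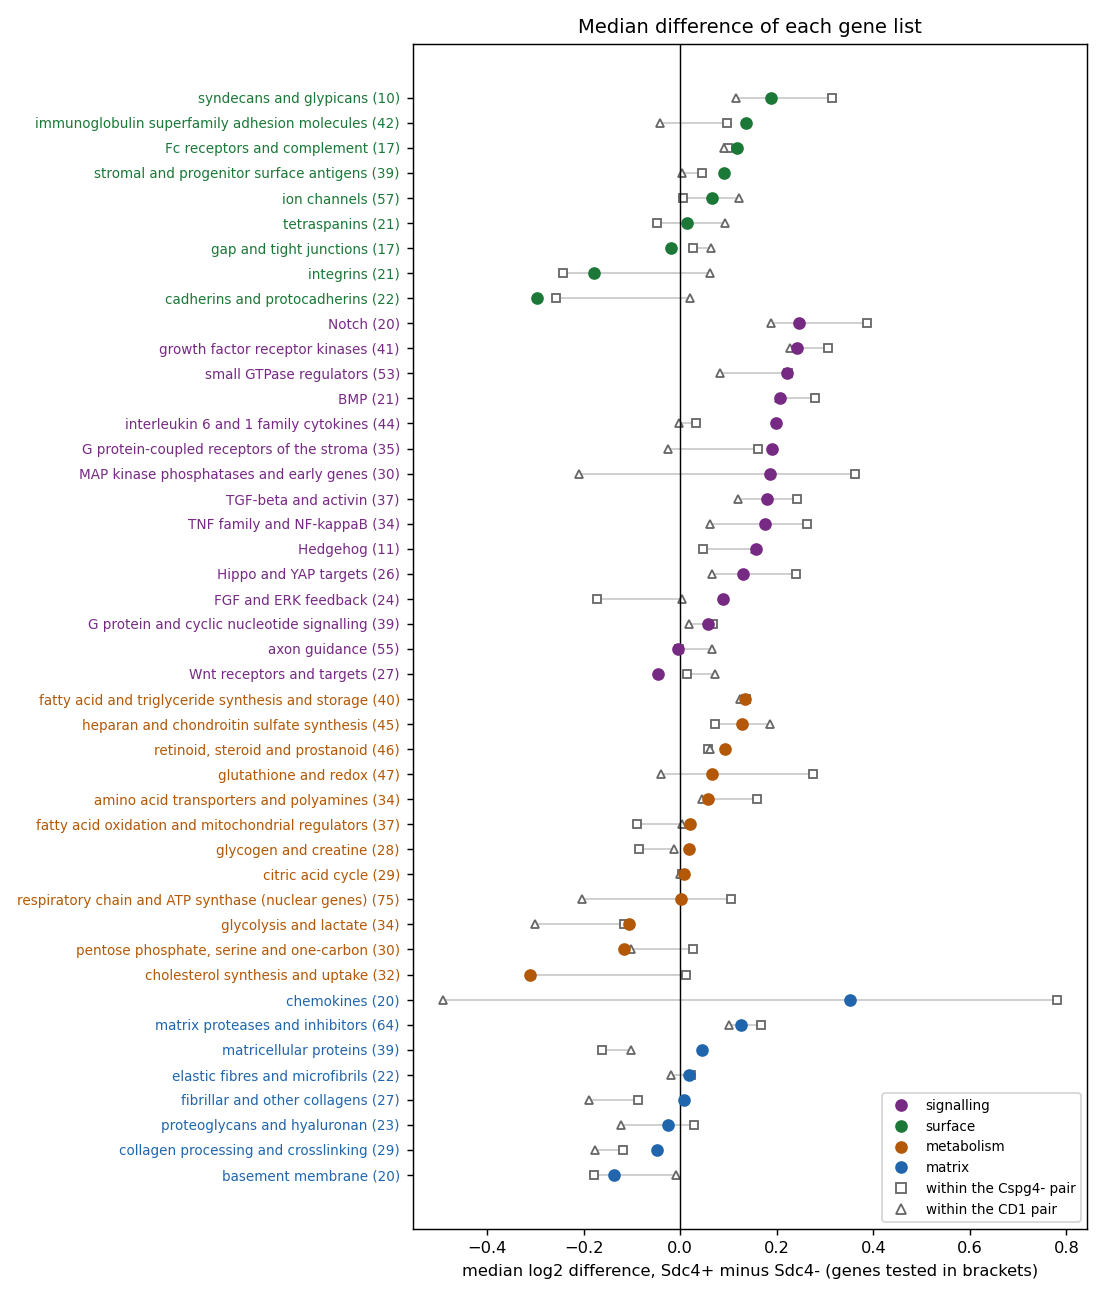
Filled circles give the median log2 difference (Sdc4+ minus Sdc4-) of the measured members of each list, coloured by theme; open squares and triangles give the same within the Cspg4- and CD1 pairs, 1 array a side. Cholesterol synthesis is at -0.31 over all arrays, with 0.01 for the Cspg4- pair and -0.31 for the CD1 pair, and chemokines are at 0.78 and -0.49 in the lines.

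Metabolic genes as a whole were near level: 254 of 477 measured members of 12 lists were higher and 223 lower (median 0.02), and 11 (2.31%) were called, against 2.71% of all genes. Of 75 respiratory chain and ATP synthase genes 38 were higher (median 0.001; lines 0.105 and -0.204), and of 29 citric acid cycle genes 15 were higher (median 0.007). The called members lay mostly among retinoid, steroid and prostanoid genes (5) and redox genes (2).

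Osgin1, an oxidative stress response gene, was at 2.84, 4.72 and 2.26 against 0.98, 0.69 and 1.1 (2.35 ± 0.57; 4.03 in the Cspg4 line and 1.16 in CD1). Hmox1, haem oxygenase 1, was at 5.40, 6.27 and 5.17 against 3.70, 4.09 and 4.23 (1.61 ± 0.30; other probe 1.41, lines 2.19 and 0.94). These are the 2 called members (4.26% against 2.71% of all genes) of the 47 measured glutathione and redox genes. Of the 47, 8 lay wholly higher (17% against 10.3% of all genes) and 5 wholly lower, a side on which 9.5% of all genes lay. Gclc, the catalytic subunit of glutathione synthesis, was at 4.03, 4.15 and 3.47 against 3.14 and 2.83 (0.90 ± 0.25, 3 against 2 arrays, lines 1.01 and 0.64), and its partner Gclm differed by 0.75 ± 0.33 (3 against 2 arrays). Nqo1, a quinone reductase, differed by 0.57 ± 0.17, with no overlap. Gclc, Gclm and Nqo1 were chosen after their values were seen, and 19 of the 47 members were lower. The NADPH-producing enzyme gene Pgd lay wholly higher by 0.75 ± 0.20 (3 against 2 arrays) in a list with 11 of 30 members higher. The median of the redox list was 0.06, with 0.28 in the Cspg4 line and -0.04 in CD1.

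Retinoid, steroid and prostanoid genes gave 5 called members of 46 (10.9% against 2.71% of all genes). Aldh1a2, which makes retinoic acid, was at -1.88, -0.51 and -1.62 against 0.10 and -0.04 (-1.37 ± 0.42, 3 against 2 arrays, lines -0.61 and -1.58, -0.91 under normexp). Crabp2, which carries retinoic acid to its receptor, was at 1.79, 2.10 and 1.64 against 1.04, -0.10 and 1.19 (1.13 ± 0.34, lines 2.19 and 0.45), while its relative Crabp1 lay wholly lower (-0.63 ± 0.21, lines -0.47 and -0.65). The carriers and the enzyme thus did not go one way. Pla2g2e, a secreted phospholipase, was at 0.42, 0.37 and -0.08 against -3.07, -0.35 and -1.36 (1.83 ± 0.62, other probe 0.80, lines 0.72 and 1.28, 1.13 under normexp). Aldh1a7, an aldehyde dehydrogenase, lay wholly higher by 1.29 ± 0.27 (3 against 2 arrays). Hpgd, which breaks down prostaglandins, differed by 1.15 ± 0.47, with 0.45 and 0.64 in the lines.

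In the cholesterol list 26 of 32 genes were lower (median -0.31), 7 of them without overlap and 0 called. Of all genes 9.5% lay wholly lower. Lss, lanosterol synthase, was at 0.37, 0.83 and 0.82 against 1.78, 1.43 and 1.35 (-0.85 ± 0.20, lines -0.60 and -0.53). Hmgcs1, at the head of the mevalonate pathway, was at 3.72, 4.41 and 3.82 against 4.88, 4.68 and 4.72 (-0.78 ± 0.20, lines -0.27 and -0.89). The shift was uneven between lines, with a median of 0.01 in the Cspg4 line and -0.31 in CD1. Abca1, which exports cholesterol, was at 2.05, 1.65 and 2.21 against 0.93 and 1.13 and so lay wholly higher (0.94 ± 0.22, 3 against 2 arrays, lines 0.72 and 1.08). Among fatty acid genes the desaturase gene Fads2 lay wholly lower (-0.99 ± 0.30, other probe -1.32, lines -0.76 and -0.50).

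In glycolysis 14 of 34 genes were higher (median -0.11). Pgam2, the muscle phosphoglycerate mutase, was at -2.55, -2.01 and -1.84 against -0.66 and 0.87 (-2.24 ± 0.49, 3 against 2 arrays, lines -1.35 and -2.71, -1.35 under normexp) and was the member called. Hk2, the inducible hexokinase, was at 2.41, 2.47 and 2.37 against 1.28, 1.21 and 2.03 (0.91 ± 0.23, lines 1.26 and 0.34). Pfkfb4, a regulator of fructose 2,6-bisphosphate, lay wholly higher by 0.85 ± 0.21. Ckb, the creatine kinase of brain and stroma, was at 1.44, 1.35 and 1.94 against 0.22, 0.48 and 0.77 (1.08 ± 0.22, other probe 0.99, lines 0.86 and 1.17). Mtfp1, a mitochondrial fission protein, lay wholly lower (-1.20 ± 0.23, 3 against 2 arrays, lines -1.17 and -1.12, -0.73 under normexp).

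Enzymes that build heparan and chondroitin sulfate, the chains that syndecans carry, were higher in 33 of 45 cases (median 0.13; 0.07 in the Cspg4 line and 0.19 in CD1). Of these 10 lay wholly higher, a share of 22.2% against 10.3% of all genes, and 2 wholly lower. The differences were small: Chst11, a chondroitin sulfotransferase, differed by 0.88 ± 0.27, Dse, which makes dermatan sulfate, by 0.81 ± 0.26 (3 against 2 arrays), and Ext1, a heparan sulfate polymerase, by 0.36. The called member was Chst3, another chondroitin sulfotransferase, which was lower (-1.03 ± 0.44, 3 against 2 arrays, lines -1.64 and -0.22) and was chosen after its value was seen.

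**Figure D4:**
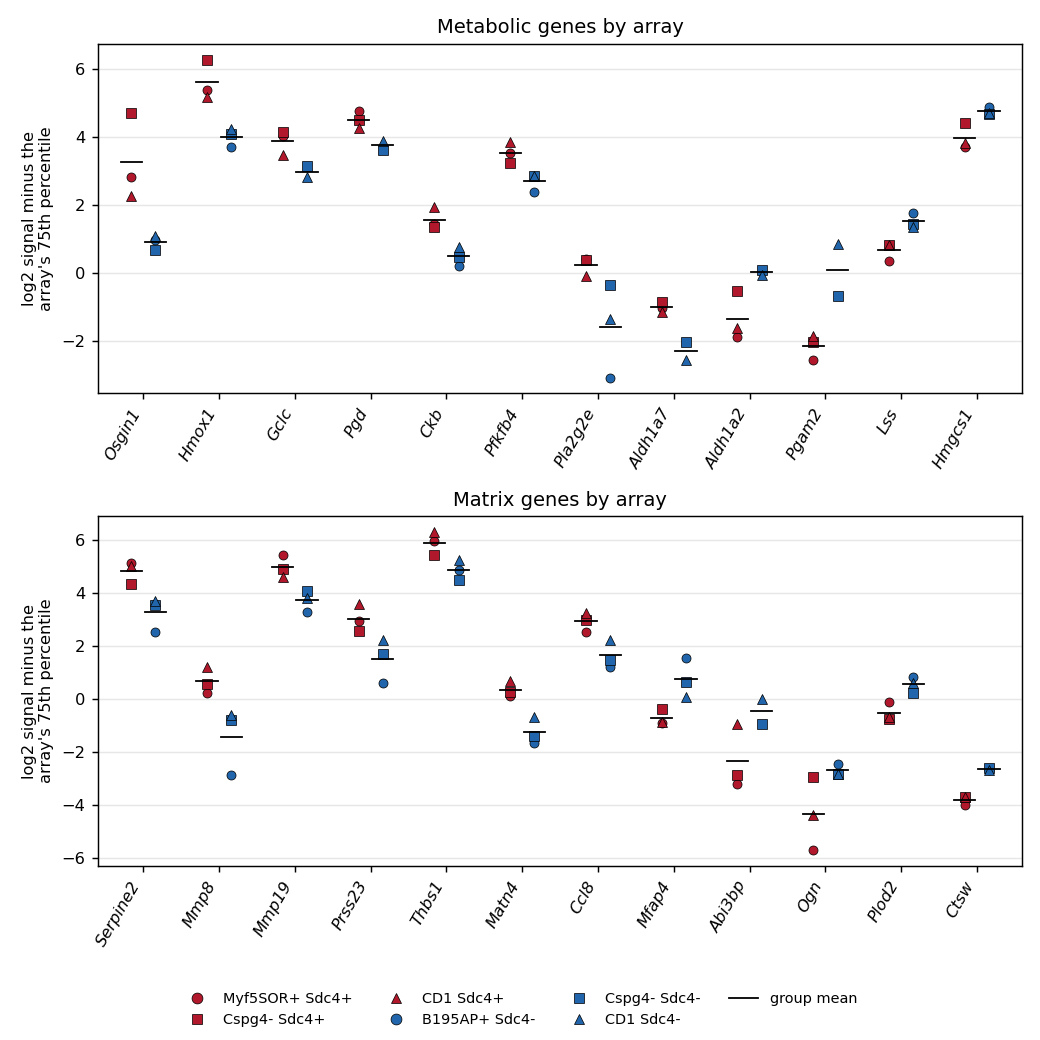
Signal of metabolic genes (top) and matrix genes (bottom) on each array, as log2 signal minus the array's 75th percentile, with symbols and bars for arrays and group means (red Sdc4+, blue Sdc4-). Hmox1 lies between 5.17 and 6.27 on Sdc4+ arrays and between 3.70 and 4.23 on Sdc4- arrays, and genes with 2 blue symbols have no B195AP+ value.

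Matrix genes gave 14 called of 244 measured members in 8 lists (5.74% against 2.71% of all genes, 7 higher and 7 lower), with 134 higher and 110 lower (median 0.04). Proteases and their inhibitors had the largest excess of higher members among the lists of structural and secreted proteins other than chemokines: 41 of 64 were higher (median 0.12; 0.17 and 0.10 in the lines), 12 lay wholly higher (18.8% against 10.3% of all genes) and 5 (7.81%) were called. Structural collagens and basement membrane genes did not lean to the Sdc4+ side.

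Serpine2, a heparin-binding inhibitor of thrombin and plasminogen activators, was at 5.15, 4.36 and 5.04 against 2.54, 3.57 and 3.73 (1.57 ± 0.35; 0.79 and 1.32 in the lines). Mmp8, a collagenase, was at 0.22, 0.58 and 1.23 against -2.86, -0.79 and -0.60 (2.10 ± 0.60, lines 1.38 and 1.83). Mmp19, which cleaves basement membrane proteins, was at 5.45, 4.93 and 4.62 against 3.29, 4.09 and 3.84 (1.26 ± 0.28, lines 0.84 and 0.78). In all 3 the B195AP+ array was the lowest, and both lines showed the same direction. The serine protease gene Prss23 was at 2.97, 2.57 and 3.60 against 0.59, 1.69 and 2.25 (1.54 ± 0.44, lines 0.88 and 1.35). Ctsw, a cathepsin of cytotoxic lymphocytes, was lower at -4.01, -3.69 and -3.69 against -2.69, -2.59 and -2.68 (-1.15 ± 0.27, lines -1.10 and -1.02, -0.12 under normexp), with 1 Sdc4+ array well above background.

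Of the matricellular proteins, which signal from the matrix, 20 of 39 were higher. Thbs1, thrombospondin 1, was at 5.99, 5.43 and 6.31 against 4.90, 4.51 and 5.27 (1.02 ± 0.28; 0.93 and 1.05 in the lines). Matn4, a matrilin, was at 0.12, 0.26 and 0.68 against -1.67, -1.41 and -0.69 (1.61 ± 0.30; 1.67 and 1.37 in the lines, 1.07 under normexp). Lower was Abi3bp, an adhesion protein of stroma, at -3.20, -2.86 and -0.95 against -0.94 and 0.02 (-1.87 ± 0.71, 3 against 2 arrays, lines -1.91 and -0.97, -0.80 under normexp), with groups that nearly met.

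Fibrillar and other collagens were split, 14 higher and 13 lower (median 0.008), with 2 called lower (7.41%, against 2.71% of all genes called either way). Col14a1 was at -5.51, -2.70 and -3.26 against 0.14, -0.95 and -1.57 (-3.03 ± 0.76, lines -1.75 and -1.69, -1.09 under normexp), but its other probe gave -0.42. Col15a1 differed by -1.14 ± 0.41, and its other probes gave -0.07 to 0.02, so neither collagen was lower by all its probes to the same extent. Plod2, which hydroxylates collagen lysines, was at -0.12, -0.74 and -0.68 against 0.84, 0.25 and 0.60 (-1.08 ± 0.24; -0.99 and -1.28 in the lines). Mfap4, a microfibril protein of elastic fibres, was at -0.91, -0.39 and -0.88 against 1.55, 0.65 and 0.08 (-1.49 ± 0.37, lines -1.04 and -0.96). Ogn, a small leucine-rich proteoglycan, differed by -1.65 ± 0.65 but by -0.12 in the Cspg4 line, and only 1 Sdc4+ array was well above background. Fbln2, an elastic fibre protein, lay wholly higher (0.68 ± 0.24, lines 0.70 and 0.23).

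Ccl8, a monocyte chemoattractant, was at 2.53, 3.01 and 3.27 against 1.23, 1.49 and 2.25 (1.28 ± 0.30) and was the 1 called member of 20 measured chemokines, 15 of which were higher (median 0.35). Its lines agreed in sign, at 1.52 and 1.03, while the list's medians did not, at 0.78 in the Cspg4 line and -0.49 in CD1. Cxcl16, a membrane-bound chemokine, lay wholly higher by 0.96 ± 0.37 (3 against 2 arrays) and differed by 0.16 in CD1.

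Beside these programmes stood the muscle genes. Of 38 listed sarcomere genes 27 were measured, 26 of them lower in Sdc4+ (median -2.95) and 20 called lower (74.1%, against 1.29% of all genes). All 27 were well above background on every Sdc4- array with a value, and 13 on all Sdc4+ arrays. A gene with 6 values could pass the filter (well above background on 3 or more arrays) through the Sdc4- side alone. These counts therefore describe and test nothing. The summed linear signal of the 16 with 6 values was 12.4 to 19.2 on Sdc4+ arrays and 24.8 to 111 on Sdc4- arrays. Of 18 listed myogenic genes 12 were measured, all 12 lower and 6 called (50%, against 1.29% of all genes called lower). Among the called was Myog, the differentiation factor myogenin, at -5.70, -2.67 and -4.05 against -1.85, -1.62 and 0.42. The same limit holds here, as all 12 were well above background on every Sdc4- array with a value and 4 on all Sdc4+ arrays. H19, an imprinted RNA abundant in regenerating muscle, was at 0.27, 2.29 and 1.88 against 4.71, 3.42 and 5.19 (-2.96 ± 0.61), and its other probes gave -2.98 to -2.66. Bex1, induced in regenerating muscle, was not well above background on any Sdc4+ array and was at least 6.29-fold higher in Sdc4- (adjusted p = 0.0410 in limma with line as a fixed block). Bex1 passed the filter through the Sdc4- arrays alone, so this p-value is no independent support for the difference. Of 30 cell cycle genes 27 were lower (median -0.40, 0 called), but the medians inside the lines were -0.13 and -0.12 and the summed signals overlapped, at 137 to 247 against 157 to 341.

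Of the 32 genes that passed with line as a fixed block, 9 were higher and 23 lower in Sdc4+, 14 belonged to the muscle lists and 30 also had groups that did not overlap. Outside the muscle lists, and beside Fcgr2b, Fcgr3, Gap43, Ptprz1 and Bex1, they included genes chosen here after their values were seen. Car9, carbonic anhydrase 9, was at -1.93, -2.35 and -0.93 against -0.37 and 1.07 (-1.99 in the block fit, adjusted p = 0.0289). Aqp1, a water channel, was at -1.25, -0.37 and 0.28 against 1.16 and 1.86 (-1.55, adjusted p = 0.0293). Both were lower in Sdc4+, and both rest on 3 against 2 arrays. Fam20c, a kinase of secreted proteins, was at 4.01, 4.37 and 3.63 against 2.56, 3.27 and 2.35 (1.19, adjusted p = 0.0489; other probe 1.18 without the block).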

How the data were processed

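RNA of 6 sorted cell populations was read on 1 Agilent SurePrint G3 mouse array each, on 1 slide. The deposited files held the processed green intensity of each spot, made by the authors with Feature Extraction software of Agilent (version 11.5.1.1), as read per the file headers. Biotin is the label named for the samples, and a single green channel is what was deposited. The authors' deposited value table held log2 values of the same arrays; lumi is named in the submitters' processing notes, without a version, and this table served as an alternative. Probe positions in the files are on mm9.

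Control spots were left out, log2 of the processed intensity was taken and the 75th percentile of each array subtracted. On the B195AP+ array, spots with row up to 200 and column up to 130 were left out, as a visible streak region (41.3% of non-control spots). Spots of 1 probe were averaged. A gene was kept if its probe cleared background on 3 or more arrays and had 2 values a side, and 1 probe stood for a gene. Group means were compared with limma 3.58.1 in R 4.3.3, with trended empirical Bayes variances and Benjamini-Hochberg adjustment over all genes. The fit was tested on simulated data. An exact permutation test of 3 against 3 arrays could not go below 0.1. A fold given as "at least" compares the mean of the bright group with, for each dim array, the higher of its lowest signal well above background and the probe's own. Array number limits the precision.

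The comparison, the gene lists and the members were chosen with earlier results of these data known. Genes named were Sdc4, Cspg4 and Myf5; in each list up to 6 members (3 for cell types) without overlap and at least 2-fold apart, by smallest p, or otherwise the 2 members with the smallest p; the 20 largest differences in each direction outside the sarcomere list; and the 5 largest bounds in each direction, of which those with a bearing on the programmes are described. Csf1, Id1, Jag1, Hes1, Relb, Tnfrsf1a, Dusp6, Fcer1g, Itgam, Itga2, Itga11, Itgb1, Gclc, Gclm, Nqo1, Hmgcs1, Hk2, Ext1, Chst3, Car9, Aqp1 and Fam20c were added after their values were seen. Alternatives changed the scaling, background correction, dim-probe filter, streak region, probe choice, variance model, line block and the arrays included. Results of some genes are not reported here.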

Additional observations from a re-analysis of the deposited data

Results flagged for a closer look

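In 5 gene lists and 1 of the 156 named genes, the Cspg4- and CD1 pairs differed in opposite directions between Sdc4+ and Sdc4-, by at least 0.2 each way. The other genes tested were not searched. Many named genes were chosen for groups without overlap, which forces both lines to go the same way, so the count of single genes says little. Each line has 1 array a side, so the difference between the lines was not tested. MAP kinase phosphatases and early genes had a median difference of 0.36 in the Cspg4 line and -0.21 in CD1. Chemokines had medians of 0.78 and -0.49. Adipocyte markers had medians of 0.74 and -0.25, and lymphocyte markers 0.31 and -0.33. Mast cell markers had medians of 1.17 and -1.62. Cd68, a lysosomal macrophage marker, had differences of -0.24 (Cspg4 line) and 0.48 (CD1). Groups of 3 arrays are too small for a test of a single outlying array.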

How the results depend on the processing

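The count of genes past limma's adjusted p of 0.05 was 0 in 19 of 21 alternatives, with a smallest adjusted p between 0.0807 and 0.902. With line as a fixed replicate block it was 32 (smallest adjusted p = 0.000265), and with line as a random replicate block 1 (0.0258, consensus correlation 0.503). The replicate numbers follow accession order and pair nothing; the line is what 2 of the 3 arrays of each side share. The 519 genes without overlap and at least 2-fold apart became 144 under normexp correction, 990 with no filter on dim probes, 308 with probes well above background on all arrays and 340 in the authors' value table. They became 1424 without both CD1 arrays, 928 without both Cspg4- arrays, and 544 to 1095 with 1 array left out (1091 without CD1 Sdc4+, 924 without Cspg4- Sdc4-, 1095 without CD1 Sdc4-); fewer arrays overlap more rarely by construction. The 199 genes at least 2-fold apart in both lines became 45, 514, 88 and 113 under the first 4 of these settings. Of 156 named genes 147 kept their direction in all 21 alternatives, and 26 of 58 lists kept the sign of their median. Values that reversed were Atp5c1 at 0.03 and Ptchd4 at -0.18 with the brightest probe, Ptchd4 at -0.18 and P4ha1 at 0.71 and Rhob at -0.024 with the streaked region kept in, Rhob at -0.035 under normexp, and Tfap2a at 2.21 with no filter. Cd68 went to -0.063 with the brightest probe or all arrays above background and to between -0.20 and 1.28 with 1 array left out (the lowest without B195AP+). Sdc4 went to -0.062 without both CD1 arrays, -0.20 without both Cspg4- arrays, -0.12 without Cspg4- Sdc4+ and -0.15 without CD1 Sdc4+, and to 1.13 without Myf5SOR+. Cpa3 went to 0.026 without both CD1 arrays, and Fabp4 ranged from -0.40 to 0.02 with 1 array left out (0.02 without Cspg4- Sdc4-). Beyond the settings' own construction, the cause was not tested.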
